A study of Homo sapiens with 6 samples.

Results

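GSTP1 and 9 other enzymes of glutathione chemistry were followed across 3 lines derived from HEK293 (human embryonic kidney cells) with and without doxycycline. The members were the array rows whose only gene symbol was GSTP1, GSTO1, GSTK1, GSTM3, MGST1, MGST2, MGST3, GLRX, GSR or GCLM. Each of the 10 had exactly 1 row, so 10 of the 12448 genes with a symbol of their own in the table were members. They were chosen from measured values of these same data: GSTP1 for being higher in both APE1 lines than in vector cells, and GLRX for being among the lowest genes of the common doxycycline response. Those contrasts are therefore given for these genes as descriptions, with no test. The other 8 members were chosen for their place in glutathione metabolism.

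The vector line is HEK293 carrying the empty pcDNA-FRT construct, the wtAPE1 line carries wild-type APE1 and the ubAPE1 line carries APE1 fused to ubiquitin. APE1, encoded by APEX1, is the main endonuclease that cuts DNA at abasic sites and also acts as a redox factor. The description of the fusion line names tet-on expression, in which doxycycline switches the transgene on. All 6 groups were grown with puromycin at 1 µg/ml, and the 3 doxycycline groups received 2 µg/ml for 16 h while the other 3 received none. Total RNA was hybridised to a whole-transcript array, and each group is 1 column that the authors averaged over 3 biological replicates, so the spread between replicates cannot be seen and no level below carries an SD. The labels give 1 line per construct, so the effect of a construct and of the line that carries it cannot be told apart.

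Glutathione is the most abundant small thiol of the cell. Glutamate-cysteine ligase, whose modifier subunit is GCLM, makes the first bond of the molecule, glutathione transferases join it to reactive compounds, glutaredoxins use it to remove glutathione from protein thiols, and glutathione reductase (GSR) returns the oxidised form to the reduced one with NADPH. GSTP1 is the pi-class cytosolic transferase. It is widely expressed in epithelia, is known for methylation of its CpG-rich promoter in prostate cancer, and also binds stress kinases.

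The sequences before the start of 3 genes are shown because GSTP1 was higher, and GLRX and MGST3 were lower, in the APE1 lines. Each is the 250 bases upstream of the start in RefSeq on GRCh38.p14, written 5′ to 3′ on the gene's strand, with capitals for matches on either strand to TGACNNNGC (the core of the antioxidant response element, which NRF2 binds), TGANTCA (the AP-1 element) and GGGCGG (the GC box of the SP family).
GSTP1, chr11:67583562-67583811, plus strand: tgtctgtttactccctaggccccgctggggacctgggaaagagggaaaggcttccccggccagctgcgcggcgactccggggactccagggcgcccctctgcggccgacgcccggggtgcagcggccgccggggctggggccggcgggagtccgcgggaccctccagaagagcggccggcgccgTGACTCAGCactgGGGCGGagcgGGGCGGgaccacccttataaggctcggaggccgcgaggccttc
GLRX, chr5:95822727-95822976, minus strand: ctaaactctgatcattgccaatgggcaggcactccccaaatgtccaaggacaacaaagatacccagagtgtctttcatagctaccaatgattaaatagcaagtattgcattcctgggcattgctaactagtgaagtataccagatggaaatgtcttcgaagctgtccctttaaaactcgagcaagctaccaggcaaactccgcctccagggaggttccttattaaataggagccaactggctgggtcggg
MGST3, chr1:165630984-165631233, plus strand: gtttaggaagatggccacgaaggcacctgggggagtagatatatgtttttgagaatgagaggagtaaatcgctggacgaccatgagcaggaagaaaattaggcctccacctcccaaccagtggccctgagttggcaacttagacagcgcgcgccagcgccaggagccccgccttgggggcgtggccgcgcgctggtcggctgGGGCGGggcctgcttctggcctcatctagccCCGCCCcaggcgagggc
The GSTP1 window held 28 CpG pairs and was 74.8% G or C, against a median of 11 CpG pairs over 35114 promoters of the same length, of which 15.9% held as many or more. Its TGACTCAGC, at -66 to -58 counted from -1 just before the start, matched TGACNNNGC and also holds a TGANTCA match, so these overlapping motifs share the same bases. A GGGCGG followed at -53 to -48 and another at -43 to -38. The GLRX window held 4 CpG pairs, was 46.4% G or C and held none of the 3 motifs. The MGST3 window held 16 CpG pairs and 2 matches to GGGCGG. Of all promoters, 10.9% held TGACNNNGC, 6.57% TGANTCA and 42.6% GGGCGG. The motifs CCAAT and TATAA were searched on both strands too. The GSTP1 window held TATAA at -28 to -24 and GLRX held 2 CCAAT, where 18.9% of promoters held TATAA and 32.0% CCAAT. RefSeq entries were used for 8 of the 10 members, with 3 entries for MGST1. No entry was found for MGST2, and GSR was left out of the search, so nothing is said here of its motifs. Among the other members, TGACNNNGC occurred in GSTO1 at -226 to -218 and at -161 to -153, and in GCLM at -34 to -26, where the window held 36 CpG pairs. These matches describe letters and were not set against any measure of binding or methylation.

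The table held 15492 rows of log2 values. Rows whose mean was at least 5.03, the 25th percentile of row means, were kept, which left 11619 rows and all 10 members. Each column was then centred on its median over the kept rows, because these medians ran from 6.56 to 6.81. Differences below are on this relative scale unless they are said to be as deposited. APEX1 checked the labels: its levels were 9.54 and 9.66 in vector cells without and with doxycycline, 9.496 and 10.67 in wtAPE1 cells and 9.82 and 10.58 in ubAPE1 cells. Its response to doxycycline was 0.18 in vector cells, 1.09 in wtAPE1 cells and 0.92 in ubAPE1 cells. In the markers that define the cells, EPCAM was lower by 7.90-fold in wtAPE1 cells and 7.71-fold in ubAPE1 cells than in vector cells, and CDH2 by 2.54-fold and 2.36-fold. Of the 8 kept HEK293 and kidney markers, 4 were above and 4 below 0 in each line on the relative scale. Above 0 were PAX2 at 0.34 and 0.21, PAX8 at 0.48 and 0.28, LHX1 at 0.57 (limma adjusted p = 0.0311) and 0.53, and KRT8 at 0.11 and 0.01. Below 0, beside EPCAM and CDH2, were KRT18 at -0.40 and -0.38 and VIM at -0.24 and -0.28. The 9 of 10 HEK293 and kidney markers with a row summed, on a linear scale, to 3635 and 4080 in the vector columns and to between 2718 and 2967 in the APE1-line columns. This sum and those that follow used deposited levels, so the shifts between column medians are still in them. The blood-cell list, with 5 of 9 markers measured, summed to 177 and 187 in the vector columns and to between 299.7 and 379 in the APE1-line columns. On that list LCP1 was 11.1-fold and 13.2-fold higher in wtAPE1 and ubAPE1 cells, with vector levels of 4.21 and 4.25 that were under the filter value. CD68 went the other way, at -0.25 and -0.35. Without LCP1 the list summed to between 128 and 168 in all 6 columns, and CD3E, CD14 and HBB were under the row filter. Summed fibroblast markers lay between 158 and 186 with 3 of 7 measured, and COL3A1 was 1.67-fold and 1.56-fold higher in wtAPE1 and ubAPE1 cells. Of 4 endothelial markers 2 had a row and both were under the filter. The part of these line-wide marker differences in the results below was not tested.

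GSTP1 was the member that differed most between lines. Its deposited level was 5.67 and 5.78 in vector cells without and with doxycycline, 7.58 and 7.99 in wtAPE1 cells, and 7.91 and 8.09 in ubAPE1 cells. All 4 APE1-line columns were above both vector columns, with a gap of 1.80 on the log2 scale, or 3.47-fold, between the highest vector and the lowest APE1-line column. In bulk RNA, more cells with the transcript and more transcript per cell cannot be told apart. The 4 APE1-line columns spanned 0.51, in the rising order wtAPE1 without, ubAPE1 without, wtAPE1 with and ubAPE1 with doxycycline. On a linear scale the levels ran from 50.9 and 55.1 in vector cells to 191, 239.8, 255 and 273 in that order. With 1 averaged column per group there is no spread to say which neighbours in this order differ.

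**Figure D1:**
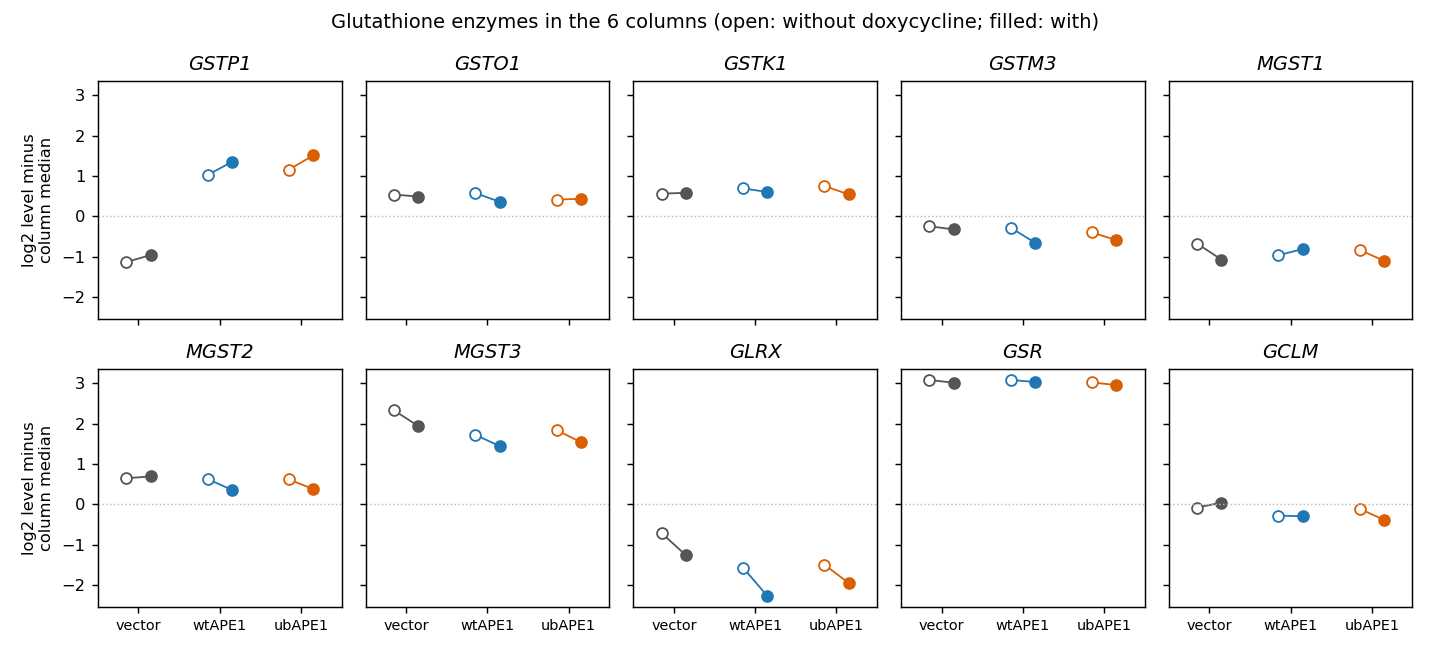
Level of each of the 10 members in the 6 columns, as log2 value minus the column median, by line (horizontal axis), with open circles for no doxycycline and filled circles for doxycycline. GSTP1 sits above its vector values in all 4 APE1-line columns, GLRX and MGST3 sit below theirs, and GSR is nearly level; each point is 1 column averaged by the authors, so there are no error bars.

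Relative to the column medians, GSTP1 was 2.16 higher in wtAPE1 than in vector cells without doxycycline and 2.31 higher with it. In ubAPE1 cells the differences were 2.29 and 2.47. The means over both states were 2.24, or 4.71-fold, and 2.38, or 5.21-fold. In each of the 4 comparisons GSTP1 ranked 3 from the top of the 11619 rows. As deposited, the means were 2.06 and 2.27. Both APE1 lines were compared with the same vector columns, so the near-equal values are not independent of each other. The difference was present without doxycycline. There, APEX1 differed from vector cells by 0.21 in wtAPE1 and 0.34 in ubAPE1 cells on the relative scale, and by -0.04 and 0.29 as deposited, so its sign in wtAPE1 cells depended on the centring.

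GSTP1 stood apart from the other members, which lay between -0.93 and 0.08 in wtAPE1 cells and between -0.73 and 0.08 in ubAPE1 cells. Their medians were -0.18 and -0.17, against 0.03 and 0.03 over all kept rows. By a rule of at least 1.5-fold in both doxycycline states, 1 member was higher in wtAPE1 than in vector cells (GSTP1, the gene chosen for it), where 0.465% of all rows were, and 1 was lower (GLRX, which passed the row filter only through its vector columns), where 2.23% were. In ubAPE1 cells GSTP1 was again higher and GLRX again lower by this rule, against 0.448% of rows higher and 1.74% lower. In single states, MGST3 without doxycycline in wtAPE1 cells also met it, so that 2 members were lower there (4.4% of rows) and 1 higher (2.73%). With doxycycline 1 was lower (3.96%) and 1 higher (1.67%). For ubAPE1 cells 1 member was lower and 1 higher in each state, where the rows lower were 2.69% without and 6.98% with doxycycline and the rows higher 1.24% and 3.29%. The rule has no test, because each group is 1 column.

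**Figure D2:**
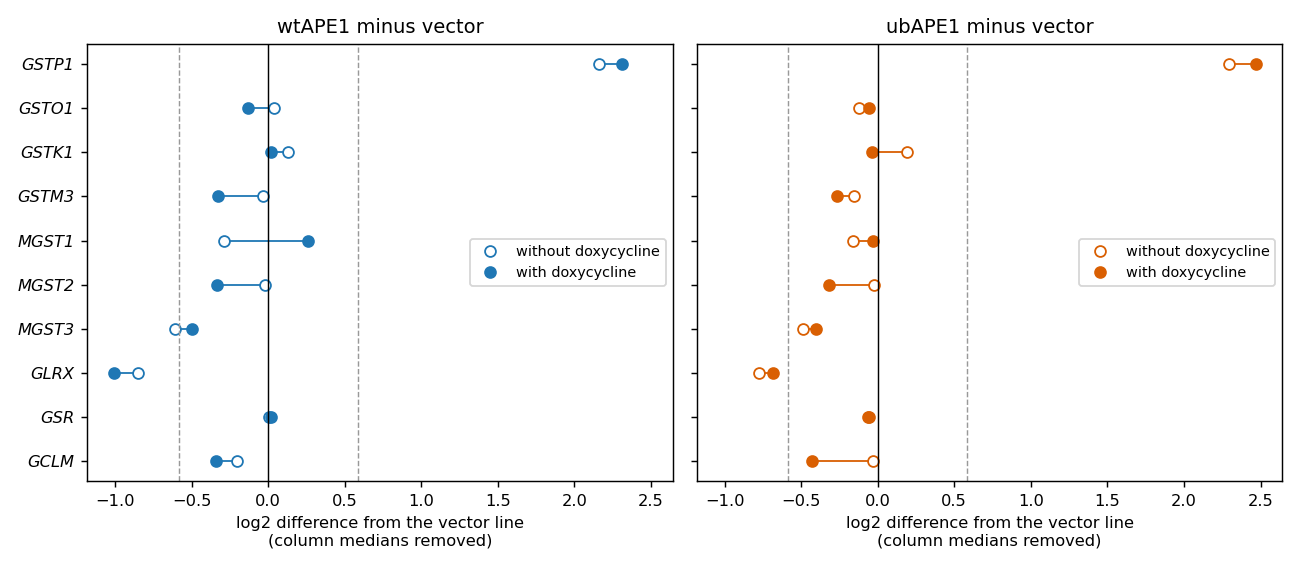
Difference of each member from vector cells on the log2 scale, after removing column medians, in wtAPE1 cells (left) and ubAPE1 cells (right), without doxycycline (open) and with it (filled). Dashed lines mark 1.5-fold; GSTP1 lies beyond 2.1 in all 4 comparisons and GLRX below -0.6 in all 4, both lines being set against the same vector columns.

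GLRX, the cytosolic glutaredoxin, was lower in both APE1 lines. Its deposited levels were 6.09 and 5.48 in vector cells without and with doxycycline, 4.99 and 4.37 in wtAPE1 cells and 5.26 and 4.63 in ubAPE1 cells. Every APE1-line column was below both vector columns. The relative differences from vector cells were -0.85 and -1.01 in wtAPE1 cells and -0.78 and -0.69 in ubAPE1 cells, without and with doxycycline. An additive limma model of line and doxycycline was fitted to all 11619 rows, with Benjamini-Hochberg adjustment over them. As there are no replicate columns, its error comes from how the 2 doxycycline states of each line depart from additivity, and limma assigned 1 common residual spread to all rows, so that each line contrast had an SE of 0.18. GLRX averaged 1.91-fold lower in wtAPE1 cells (log2 -0.93) and 1.66-fold lower in ubAPE1 cells (log2 -0.73). It passed the row filter narrowly, with a mean of 5.13, and only through the vector columns where it is high, so its p is taken from the same model fitted to all 15492 rows with no filter. There its differences were -0.95 (limma adjusted p = 2.39e-04) in wtAPE1 and -0.73 (limma adjusted p = 0.00690) in ubAPE1 cells. A filter at the 50th percentile removed it.

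The membrane-bound transferases (MGST1, MGST2 and MGST3) belong to the MAPEG family and sit in the endoplasmic reticulum and outer mitochondrial membrane. MGST3, which also has glutathione peroxidase activity, read 9.14 and 8.69 in vector cells, 8.28 and 8.09 in wtAPE1 cells and 8.59 and 8.12 in ubAPE1 cells, each without and with doxycycline. All 4 APE1-line columns were below both vector columns. In limma its relative difference was -0.55 in wtAPE1 cells (SE 0.18, adjusted p = 0.0387) and -0.44 in ubAPE1 cells (SE 0.18, adjusted p = 0.164). The wtAPE1 call was lost as deposited (limma adjusted p = 0.0608), with quantile normalization (0.0596) and with the stricter filter (0.0595).

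MGST1 read 6.13 and 5.67 in vector cells, 5.59 and 5.83 in wtAPE1 cells and 5.91 and 5.48 in ubAPE1 cells. The ranges of the 3 lines overlapped, and its wtAPE1 difference changed sign with doxycycline, from -0.29 to 0.26. MGST2, which can also make leukotriene C4, ranged from 6.96 to 7.45. Its differences from vector cells were -0.02 and -0.34 in wtAPE1 cells and -0.03 and -0.32 in ubAPE1 cells, without and with doxycycline.

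The cytosolic omega-class GSTO1, the kappa-class GSTK1 of mitochondria and peroxisomes, and the mu-class GSTM3 varied little beside GSTP1. GSTO1 ranged from 7.002 to 7.34 and GSTK1 from 7.12 to 7.503 over the 6 columns. Their differences from vector cells lay between -0.13 and 0.19 in both lines and states. GSTM3 ranged from 5.98 to 6.56, and its differences were -0.04 and -0.33 in wtAPE1 cells and -0.15 and -0.27 in ubAPE1 cells. None of these 3 transferases passed the limma threshold against vector cells.

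GSR held one of the narrowest ranges of the members, with 9.89 and 9.76 in vector cells, 9.65 and 9.68 in wtAPE1 cells and 9.77 and 9.54 in ubAPE1 cells. Its mean relative difference from vector cells was 0.01 in wtAPE1 cells, with a 95% interval of -0.34 to 0.36, and -0.06 in ubAPE1 cells, with an interval of -0.41 to 0.29. GCLM read 6.73 and 6.79, 6.28 and 6.35, and 6.64 and 6.19 in vector, wtAPE1 and ubAPE1 cells. All 4 APE1-line columns of GCLM were below both vector columns as deposited. Its mean relative differences were -0.27 (limma adjusted p = 0.385) and -0.23 (limma adjusted p = 0.647), which did not pass.

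Leaving out GSTP1, chosen for this contrast, and GLRX, for its passage through the filter, 1 of 8 members (MGST3) passed the limma threshold of 0.05 as lower in wtAPE1 than in vector cells, where 4.03% of all rows did. In ubAPE1 cells 0 of 8 passed as lower, where 3.55% of rows did. In limma 0 of 8 passed as higher in either line, where 1.62% and 1.08% of rows did. In either direction 5.65% and 4.64% of rows passed. At an unadjusted p under 0.05, 1 of 8 members in each line (MGST3, lower) was called, where 20.5% and 13.6% of rows were called in either direction. Counts of members of any size below vector cells depended on the scale. Of the 9 members other than GSTP1, GLRX included, 5 were lower than vector cells in both states of wtAPE1 cells on the relative scale, where 31.3% of rows were, and 8 as deposited, where 53.3% were. In ubAPE1 cells 8 were lower on each scale, where 22.7% and 37.1% of rows were.

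**Figure D3:**
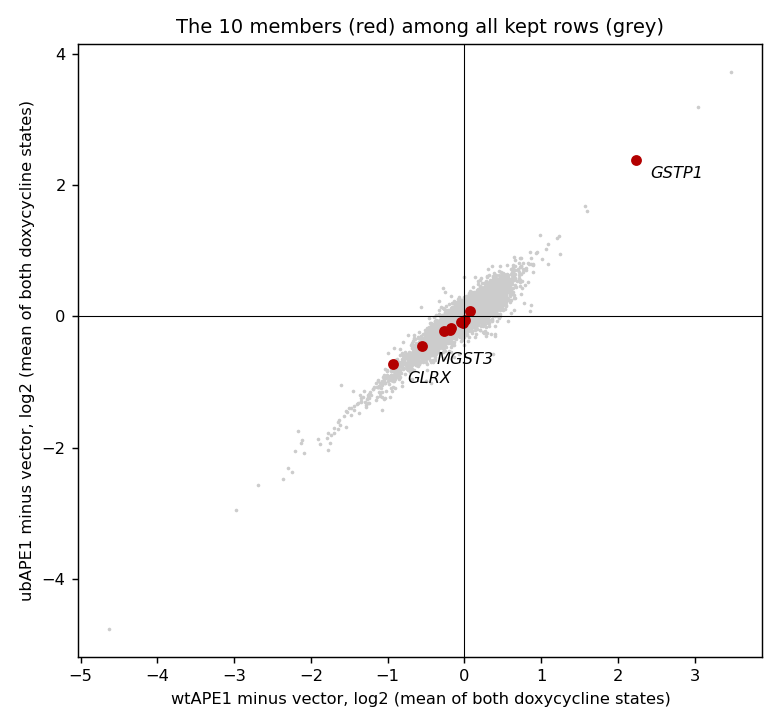
Mean difference from vector cells over both doxycycline states, on the log2 scale after removing column medians, in wtAPE1 cells (horizontal axis) and ubAPE1 cells (vertical axis), for all 11619 kept rows (grey) and the 10 members (red). GSTP1 lies at 2.24 and 2.38 and the other 9 lie at 0.08 or less on both axes; the axes share the vector columns, so the diagonal is not evidence of agreement.

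Between the APE1 lines themselves the members were close. GSTP1 was 0.13 higher in ubAPE1 than in wtAPE1 cells without doxycycline and 0.16 higher with it, a mean of 0.15 with a 95% interval of -0.20 to 0.50. The largest mean difference was that of GLRX, at 0.20 with an interval of -0.15 to 0.55. By limma, 0 of 10 members passed (the smallest unadjusted p was 0.265), where 0.00861% of all rows passed and 105 rows, or 0.904%, had an unadjusted p under 0.05. By the 1.5-fold rule in both states 0 of 10 members were called, where 0.0% of rows were higher and 0.0344% lower. In single states 0 members were called too, where 0.878% of rows were higher and 1.05% lower without doxycycline, and 0.198% and 0.258% with it. Over the 10 members the 95% intervals reached from -0.43 to 0.55, so differences of that size between the fusion and the wild-type line are not excluded.

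Within each line the response to doxycycline of the members was small. GSTP1 was higher with doxycycline in every line, by 0.18 in vector, 0.33 in wtAPE1 and 0.35 in ubAPE1 cells (0.11, 0.41 and 0.18 as deposited), and in no line by as much as 1.5-fold. GLRX was lower with doxycycline in every line, with differences of -0.55, -0.71 and -0.46 on the relative scale, and of -0.61, -0.62 and -0.63 as deposited. It ranked 79 from the bottom in vector cells, 24 in wtAPE1 cells and 774 in ubAPE1 cells of 11619 rows. Only GLRX in wtAPE1 cells was past 1.5-fold, where 0.482% of rows were lower. As GLRX was chosen for its low doxycycline response, nothing is read from this count. None of the other 9 members was past 1.5-fold lower in any line, and GLRX was not in vector or ubAPE1 cells, where 0.516% and 2.75% of rows were. No member was past 1.5-fold higher, where 0.379%, 0.448% and 1.71% of rows were in vector, wtAPE1 and ubAPE1 cells.

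**Figure D4:**
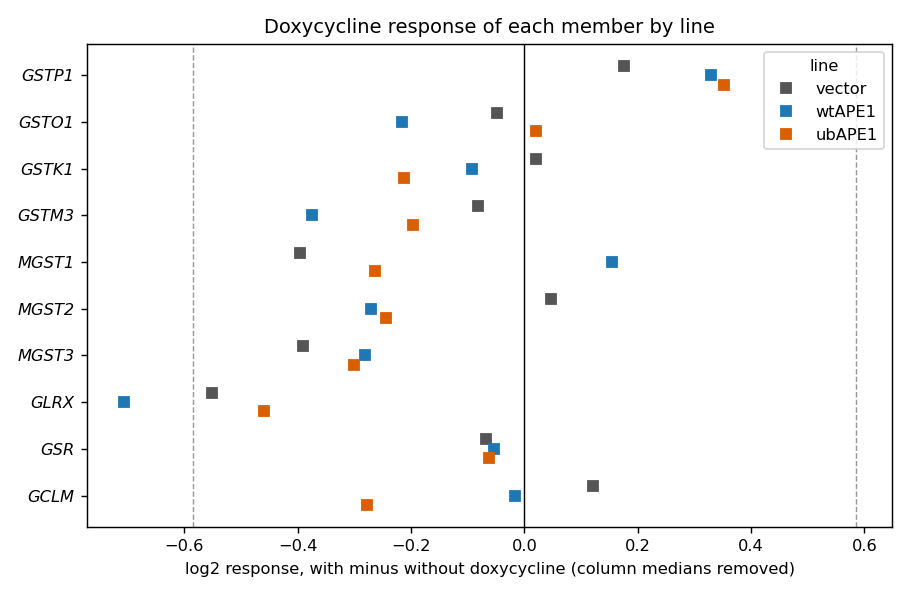
Doxycycline response of each member in each line (grey vector, blue wtAPE1, orange ubAPE1), as the log2 value with minus without doxycycline after removing column medians, with dashed lines at 1.5-fold. GLRX in wtAPE1 cells, at -0.71, is the single point past them, GSTP1 lies above 0 in all 3 lines and GSR between -0.07 and -0.05; the vector line carries no APE1 transgene.

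MGST3 gave -0.39, -0.28 and -0.30 in vector, wtAPE1 and ubAPE1 cells, and GSTM3 -0.08, -0.38 and -0.20. GSR gave -0.07, -0.05 and -0.06. Leaving out GLRX, 3 of 9 members (GSTM3, MGST3 and GSR) were lower with doxycycline in all 3 lines, where 6.39% of rows were. As deposited there were 5 of 9, where 10.5% of rows were, and GSTM3, MGST3 and GLRX were lower in all 3 lines on both scales. GSTP1 was the 1 member higher in all 3 lines on both scales, where 9.1% of rows were on the relative scale and 5.26% as deposited. GCLM gave 0.12 in vector cells, against -0.02 and -0.28 in the APE1 lines, and MGST1 ran -0.40, 0.15 and -0.26, so neither kept a sign. The median over the 10 members was -0.06, -0.15 and -0.23 in vector, wtAPE1 and ubAPE1 cells, against 0.02, -0.01 and 0.04 over all rows.

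In the common doxycycline term of the limma model, with the 3 lines in place of replicates and an SE of 0.15, GLRX read -0.57, given as a value only. Of the other 9 members 0 passed (limma with Benjamini-Hochberg adjustment, smallest adjusted p = 1.00), where 0.0775% of all rows did (0.0344% higher and 0.043% lower), and 2 had an unadjusted p under 0.05, where 2.55% of rows had. These were MGST3 at -0.32 (unadjusted p = 0.0259 in limma) and GSTP1 at 0.29 (unadjusted p = 0.0493 in limma).

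The 5 rows of 9652 whose profiles over the 6 columns were most like that of GSTP1, by the root mean square difference after centring each profile, were TNFRSF10D (0.34), SPARC (0.43), IRF8 (0.53), CRMP1 (0.55) and ZDHHC22 (0.57). TNFRSF10D encodes a decoy receptor for TRAIL, SPARC a matrix glycoprotein and IRF8 an interferon regulatory factor. TNFRSF10D was 1.57 and 1.69 higher in wtAPE1 and ubAPE1 cells than in vector cells, and SPARC 3.04 and 3.18. For GLRX, in a search added after its values were seen, MGST3 was the nearest of the same rows (0.21), followed by CYP1B1 (0.22), a cytochrome P450. The 6 columns leave such a ranking with little to separate close rows.

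GSTP1 was also set against its neighbours on chromosome 11. Of the 20 genes nearest to it, 10 on each side in the RefSeq gene order, 11 had a row of their own and 10 passed the filter. Their mean differences from vector cells over both doxycycline states lay between 0.02 and 0.45 in the APE1 lines, and between -0.11 and 0.27 as deposited. In single states they ran from -0.36 (NUDT8) to 0.73 (GPR152) on the relative scale. The highest mean was that of CABP2, the adjacent gene, at 0.45 in wtAPE1 and 0.25 in ubAPE1 cells. NDUFV1, a complex I subunit on the other side, was at 0.06 and 0.09. None of the 10 approached the difference of GSTP1.

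Other genes of glutathione metabolism and its regulation were taken from 10 lists of 125 genes, of which 90 had a row of their own and 80 passed the filter. Compared with vector cells in both doxycycline states, 4 of the 80 were at least 1.5-fold lower in wtAPE1 cells and 2 in ubAPE1 cells, where 2.23% and 1.74% of all rows were. In wtAPE1 cells 0 and in ubAPE1 cells 1 were higher by the same rule, where 0.465% and 0.448% of rows were. In limma 7 of the 80 were lower and 4 higher in wtAPE1 cells, or 8.75% and 5.0%, against 4.03% and 1.62% of all rows. In ubAPE1 cells 5 were lower and 2 higher, or 6.25% and 2.5%, against 3.55% and 1.08%. The lists were chosen with CHAC1 and CTH already known to be low, so these counts and shares are not independent evidence. By the 1.5-fold rule, CHAC1 and CTH were the 2 genes lower in ubAPE1 cells and were among the 4 in wtAPE1 cells. In limma without those genes, 5 of 78 (6.41%) were lower in wtAPE1 and 3 of 78 (3.85%) in ubAPE1 cells. All the lists were chosen with earlier results of these data known, so these shares are not independent evidence either.

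Of the 14 measured genes on the list of glutathione synthesis, turnover and precursor supply, 3 were lower in limma in each line and none higher, where 4.03% and 3.55% of all rows were lower. CHAC1 and CTH were among the 3 and were known to be low when the lists were chosen. Nothing is read from this count, and these genes are given as sizes with no test. CHAC1, which degrades glutathione, was lower by 2.42-fold in wtAPE1 cells and by 2.38-fold in ubAPE1 cells. CTH, which makes cysteine from cystathionine, was lower by 2.16-fold and 2.11-fold. SLC7A11, the cystine transporter, was lower by 2.01-fold (limma adjusted p = 1.57e-06) and 1.85-fold (limma adjusted p = 4.75e-05). In ubAPE1 cells it was at -0.55 without and -1.23 with doxycycline, so only the state with doxycycline was past 1.5-fold. The catalytic partner of GCLM, GCLC, was at -0.32 and -0.24 and glutathione synthetase (GSS) at 0.36 and 0.37, and neither passed.

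**Figure D5:**
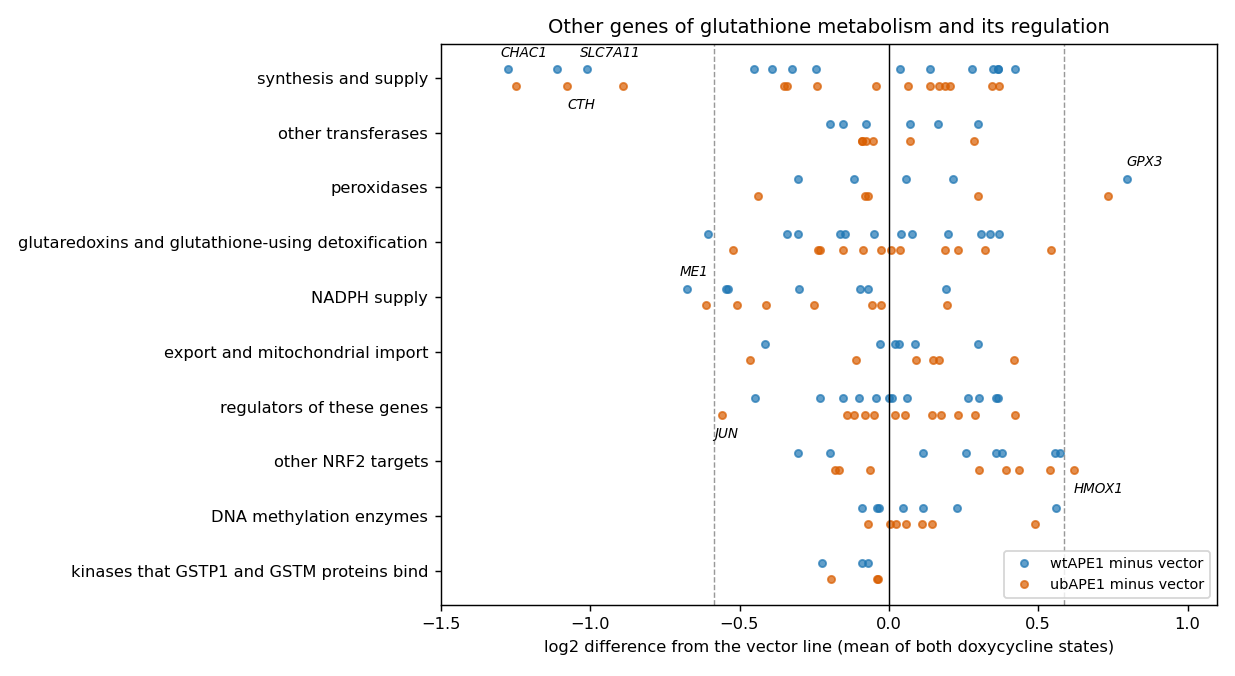
Mean difference from vector cells over both doxycycline states, on the log2 scale after removing column medians, for the 80 measured genes of 10 lists on glutathione metabolism, with wtAPE1 cells in blue and ubAPE1 cells in orange. Dashed lines mark 1.5-fold; CHAC1, CTH and SLC7A11 lie lowest and GPX3 highest in both lines.

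Among enzymes that use glutathione or feed it with NADPH, single genes moved. GPX3, the secreted glutathione peroxidase, was 1.74-fold higher in wtAPE1 cells (limma adjusted p = 4.14e-04) and 1.66-fold higher in ubAPE1 cells (limma adjusted p = 0.00188), 1 of 5 measured peroxidases. ME1, the cytosolic malic enzyme that yields NADPH, was lower by 1.60-fold (limma adjusted p = 0.00518) and 1.53-fold (limma adjusted p = 0.0179) as means over both doxycycline states. In ubAPE1 cells the states were unlike, at -0.04 without and -1.18 with doxycycline, so without it ME1 was near its vector level. In wtAPE1 cells they were -0.60 and -0.75. Of the 7 NADPH-supply genes, 3 were lower in limma in wtAPE1 cells and 1 in ubAPE1 cells. In wtAPE1 cells ME2 (limma adjusted p = 0.0426) and NNT (limma adjusted p = 0.0450) were near the threshold. Over all rows, 4.03% and 3.55% passed limma as lower in wtAPE1 and ubAPE1 cells, and 1.62% and 1.08% as higher. Among 12 detoxification genes CLIC4 was lower in wtAPE1 cells (log2 -0.61, limma adjusted p = 0.0176) and none passed in ubAPE1 cells. Of the 6 other transferases measured, none passed in limma against vector cells, and the largest mean differences were those of PTGES, which makes prostaglandin E2, at 0.30 and 0.29, and GSTCD at -0.20 and -0.09. Of 6 measured transport genes none passed either, with SLC25A10 at -0.41 and -0.47 and ABCC4 at 0.30 and 0.42.

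The measured regulators of these enzymes showed few differences. NFE2L2, which encodes NRF2, had no row of its own and is not among them, and the listed NRF2 target NQO1 had none either. Of 12 measured, JUN, an AP-1 subunit, was lower in ubAPE1 cells (log2 -0.56, limma adjusted p = 0.0394), read -0.45 in wtAPE1 cells, and was the only one past the threshold in either line. For this and the next lists, the shares of all rows past limma in wtAPE1 and ubAPE1 cells were 4.03% and 3.55% lower, and 1.62% and 1.08% higher. NFE2L1 was at -0.15 and -0.08 and KEAP1, which holds NRF2 down, at -0.10 and 0.18. Of 8 other NRF2 targets, SRXN1 and BLVRB were higher in limma in wtAPE1 cells (0.56 and 0.57) and HMOX1, heme oxygenase, in ubAPE1 cells (0.62), and the medians over the 8 were 0.31 and 0.35. TXNRD1, thioredoxin reductase, was at -0.30 and -0.06. Of 7 DNA methylation enzymes, DNMT3B was higher in wtAPE1 cells (log2 0.56, limma adjusted p = 0.0352), at 0.49 in ubAPE1 cells (limma adjusted p = 0.0999). Of the kinases that GSTP1 and GSTM proteins bind 3 were measured, MAP3K5 at -0.22 and -0.19 among them, and none passed. With doxycycline, 0 of the 80 genes were past 1.5-fold in vector cells. In wtAPE1 cells 1 of 80 (1.25%) was higher, MAFG at 0.70, where 0.448% of rows were. In ubAPE1 cells 1 (1.25%) was higher, PTGES at 0.63, and 1 lower, ME1 at -0.69, where 1.71% of rows were higher and 2.75% lower.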

How the data were processed

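Total RNA of 6 groups was measured on whole-transcript arrays. The deposited values are 1 column per group, each averaged by the authors over 3 biological replicates per the labels. They were taken as log2 expression from their range, because the deposited table does not name a scale. Background correction, normalization and summarisation were steps not given in the sources used here. Build hg18 is named in the submitters' processing notes. Rows were named through the platform annotation where it gave 1 symbol (12616 rows), with 2031 rows of several symbols and 845 of none left unnamed.

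Rows with a mean of at least 5.03 were kept and columns were centred on their medians. Sizes were read against a 1.5-fold rule, and limma 3.58.1 in R 4.3.3 (lmFit and eBayes, line plus doxycycline, 2 residual degrees of freedom, infinite prior degrees of freedom) was tested on simulated data, where it recovered 57% of rows changed by a log2 of 1 and 89% of those changed by 2 in the wtAPE1 contrast over 11619 rows, and 72% and 95% in the doxycycline contrast. The simulated rows were given residual spreads that differed from row to row, whereas the fit to the data assigned 1 common spread to all rows. The recovered shares therefore do not measure how often a change of that size would be called in these data. With averaged columns, p-values measure the departure of the columns from additivity and not the spread between replicates. The number of arrays limits the precision. Intervals are the estimate and its limma SE at 95%.

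Named genes were the members, APEX1, from each list those past 1.5-fold in both states of an APE1 line or otherwise the largest mean differences, the 5 nearest profiles and the neighbours of GSTP1. Others named from the lists (GCLC, GSS, NFE2L1, KEAP1, TXNRD1, SRXN1, DNMT3B and MAFG among them) were chosen after their values were seen, as was the profile search for GLRX. The members and lists were chosen with earlier results of these data known. Alternatives were the row filter, the centring, quantile normalization, a raised floor, gene length, the size rule, other limma settings and each line left out in the doxycycline contrast.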

Additional observations from a re-analysis of the deposited data

How the results depend on the processing

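GSTP1 kept its direction from vector cells in every alternative run. Its mean difference in wtAPE1 cells was 2.06 as deposited and 2.02 with the gene-length trend removed, and 2.26 in ubAPE1 cells with that trend removed. A filter at the 50th percentile, at 6.16, removed GLRX and also MGST1 (mean 5.77), so its counts are over the members left. By the 1.5-fold rule, 0 members were then lower with doxycycline in wtAPE1 cells. In both states 0 were lower in wtAPE1 cells and 0 in ubAPE1 cells, and 1 listed gene was lower in ubAPE1 cells. In limma 0 members passed in wtAPE1 cells and 0 in ubAPE1 cells (2 and 1 in the reported setting with GLRX counted). As deposited, 1 member was lower with doxycycline in vector cells and 1 in ubAPE1 cells, 2 were lower in both states in wtAPE1 cells, 1 passed limma there, 7 listed genes were lower in wtAPE1 cells and 0 higher in ubAPE1 cells. With quantile normalization, 1 listed gene was higher in wtAPE1 cells and 1 member passed limma there. With the length trend removed, 1 member was lower with doxycycline in ubAPE1 cells and 0 listed genes were higher there. Under a 2-fold rule, 0 members were lower with doxycycline in wtAPE1 cells, 0 were lower in both states in either APE1 line, and the listed genes numbered 1 lower in wtAPE1 cells, 0 higher and 0 lower in ubAPE1 cells. The causes were not tested, except that a 2-fold rule cannot call more genes than a 1.5-fold rule does. MGST3 was kept by the stricter filter, where its limma adjusted p in wtAPE1 cells was 0.0595, against 0.0387 in the reported setting. The limma call of MGST3 in wtAPE1 cells had adjusted p from 0.0126 to 0.0608 over the alternatives. GLRX passed limma in both APE1 lines in the fit with no row filter. In the other alternatives that kept it, GLRX entered through its vector columns, so its passes there are not read as support. It was the 1 member that passed limma in wtAPE1 cells as deposited and with quantile normalization. Of the remaining values, 134 counts or means were equal or near to those of the reported setting. Near counts could differ, as listed genes lower in wtAPE1 cells numbered 4 in the reported setting and 3 with quantile normalization. The other 276 values, of single genes, kept their side of the limma threshold, but not all kept their sign. In wtAPE1 against vector cells, GSR read 0.01 in the reported setting and -0.17 as deposited, and GSTK1 0.08 and -0.10. The doxycycline term compares states within each line, and no other pairing was fitted, since each group has 1 averaged column. Each member has 1 row, so the choice of row could not change a member. Signal over background was not used here.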
